A study of Mus musculus with 47 samples.

Results

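The genes described here are the mouse histone genes and the histone variants of spermatids: every gene whose symbol begins with Hist1h, Hist2h, Hist3h or Hist4h, as the genes of the histone clusters are named, together with 11 genes named otherwise, which are H1fnt, Hils1, H1f0, H1fx, H2afx, H2afz, H2afy, H2afv, H2afj, H3f3a and H3f3b. The symbol alone chose them, and it found 79 of the 23416 genes with a symbol of their own in the count tables. RNA-seq counts of liver and of spermatozoa were compared between adult sons, 8 to 12 weeks old, of males lacking the X-linked gene Scml2 (Scml2-KO, made with a zinc finger nuclease in C57BL/6) and of wild-type males. Because the mutant males are infertile, their testicular sperm, like those of the wild-type fathers, were injected into BDF1 oocytes (ICSI). The sons of the mutant fathers (KO-F1) and of the wild-type fathers (Ctrl-F1), both given as BDF2 in background, drew their X chromosome from the oocyte and were therefore wild type for Scml2. KO-F2 males, given as BDF3, came from KO-F1 males mated with C57BL/6 females, and spermatozoa alone were read from them. The 5 groups, which were Ctrl-F1 liver, KO-F1 liver, and the spermatozoa of Ctrl-F1, KO-F1 and KO-F2, held 2 libraries each, described as independent biological replicates. Spermatozoa were motile cells that swam up from the cauda epididymis. KO-F2 spermatozoa had no F2 control and were sequenced in a run named for them alone. KO-F2 males also came from mating instead of ICSI and had another stated background. Run, generation, mode of conception and background therefore cannot be told apart. Liver RNA was made into libraries from its poly(A) fraction with a stranded kit and sperm RNA by low-input cDNA amplification primed on poly(A), so that tissue and kit cannot be told apart either.

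Histones are the proteins around which DNA is wrapped: H2A, H2B, H3 and H4 form the nucleosome core and H1, the linker histone, binds where DNA enters and leaves it. Most histone genes lie in clusters and are transcribed while DNA is replicated, and their messages end in a stem-loop in place of a poly(A) tail. Replacement variants such as H3.3 (made by H3f3a and H3f3b), H2A.Z (H2afz) and H1.0 (H1f0) are made outside replication, from genes apart from the main clusters whose messages are polyadenylated. In male germ cells testis variants join them, among them the linker histones H1t (Hist1h1t), H1T2 (H1fnt) and HILS1 (Hils1), H2A type TH2A (Hist1h2aa) and H2B type TH2B (Hist1h2ba). In elongating spermatids most histones are exchanged for transition proteins (Tnp1, Tnp2) and then for protamines (Prm1, Prm2), and transcription ceases, so that the RNA of spermatozoa is left from earlier stages or taken up in transit.

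The end of the message was read from the genome first, because both kits start from poly(A). Of the 79 members, 78 were matched to a RefSeq gene of GRCm38.p6, 54 of them on chromosome 13, 11 on chromosome 3 and 6 on chromosome 11. The stem-loop letters, which are GGNNCTT, NT and NAGNNCC joined in that order, were searched on the sense strand within 150 bases after the stop codon, and they stood there in 62 of the 77 members with an annotated coding sequence, against 69 of 22440 coding genes (0.307%). The 6 sequences that follow, from RefSeq with the 16 stem-loop letters in capitals, belong to members whose counts are described below and show how little the element varies between classes.
Hist1h1c (linker H1, chr13:23739512-23739527, plus strand): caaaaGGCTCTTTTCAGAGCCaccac
Hist1h2bc (H2B, chr13:23684647-23684662, plus strand): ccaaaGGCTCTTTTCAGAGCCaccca
Hist3h2a (H2A, chr11:58955172-58955187, plus strand): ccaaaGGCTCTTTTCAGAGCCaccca
Hist1h4d (H4, chr13:23581950-23581965, plus strand): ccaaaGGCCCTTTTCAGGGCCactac
H2afx (variant H2A.X, chr9:44335240-44335255, plus strand): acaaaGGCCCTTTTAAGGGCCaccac
Hist1h1t (testis H1t, chr13:23696525-23696540, plus strand): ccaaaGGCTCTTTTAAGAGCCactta

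The coordinates are those of the capitals. The 16 letters of Hist1h1c were found in 37 members of the H1, H2A, H2B, H3 and germline classes, while those of Hist1h4d were found in 8 members, all of them H4 genes. It lay 21 to 58 bases after the stop codon, with a median of 31. The 15 members with a coding sequence and without the element were H1fnt, Hils1, Hist2h2be, Hist1h2an, Hist1h2bp, Hist1h2bq, Hist1h2br and the replacement variants other than H2afx. A match describes the letters in this window and does not show how a message ended in these cells.

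Counts followed this division. The 15 members without the element held 65214 of the 79718 histone counts of the 10 libraries, with a median of 2803 counts a gene, and the 62 members with it held 14498, with a median of 10. Of the latter, 8 reached 100 counts over all libraries and 7 were at 0. In 4 members with the element, Hist1h2bc, Hist1h2be, Hist1h3e and H2afx, the annotated gene runs on for more than 100 bases beyond it, and these held 8638 of the 14498 counts, 6798 of them in Hist1h2bc and 1778 in H2afx. Among the 58 whose annotation ends within 100 bases, the highest was Hist1h1c with 2860.

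The histone genes are near-copies of each other, and only reads placed at a single position were counted, so the share of 75-base windows of each gene's exons found once in the genome was taken as well. In 7 members under 10% of windows were unique. Of these, 4 (Hist1h2ao, Hist2h2aa1, Hist1h2bq and Hist1h2br) were at 0, Hist1h4n had 27 counts, and Hist2h3c1 and Hist2h3c2, whose windows were never unique, nevertheless had 161 and 79 counts, so that values of the last pair are uncertain. Of 26 members with 10% to 50% unique windows, 19 had under 10 counts, as did 1 of the 19 members with 90% or more. All windows of H1fnt and Hils1 were unique, as were 84.8% of those of Hist1h1c and 82.0% of those of H3f3b, but 53.4% of those of Hist1h2bc, 29.5% of those of H2afz and 16.7% of those of H3f3a. Levels of single canonical members may therefore be too low. As Hist2h3c1 and Hist2h3c2 had counts without a unique window, such levels cannot be taken as strict lower limits either.

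**Figure D1:**
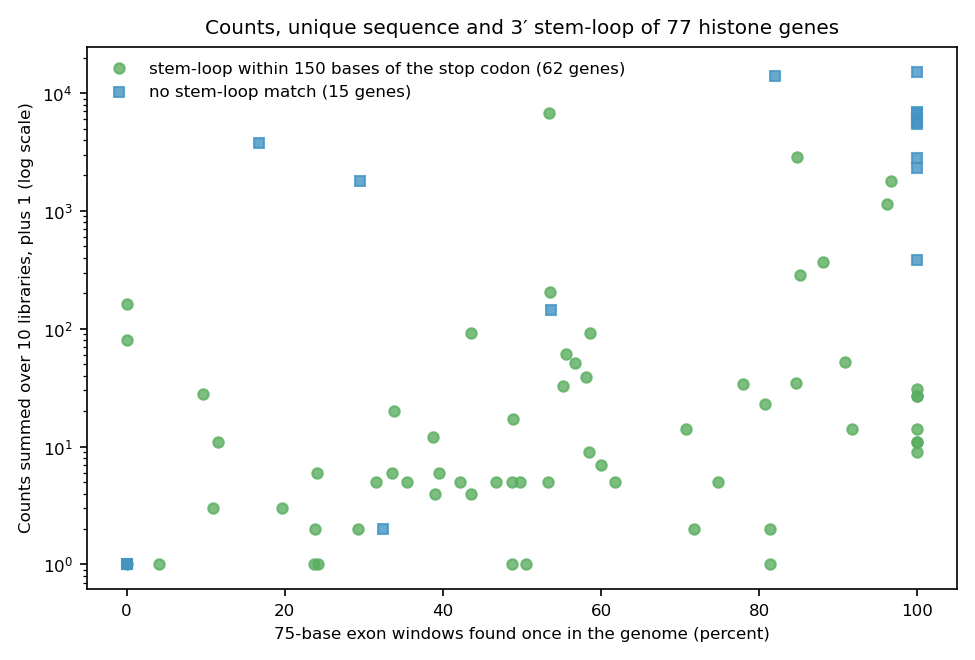
Counts of each histone gene summed over the 10 libraries, plus 1, on a log axis, against the percent of its 75-base exon windows that occur once in the genome; 62 genes with and 15 genes without the stem-loop letters after the stop codon are marked apart. Genes without the element reach 15222 counts, and under 10 counts are seen in 1 of 19 genes with at least 90% unique windows and in 19 of 26 with 10% to 50%.

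In all, 10 members were at 0 in every library, 25 had 1 to 9 counts, 24 had at least 10 but under 100, and 20 had 100 or more. The canonical classes other than H1 made up the low end: 11 of 17 H2A, 10 of 18 H2B, 8 of 12 H3 and 6 of 13 H4 genes stayed under 10 counts. Of the canonical H1 genes 0 of 5 did, and all 9 replacement variants passed 100. In liver 34 members were at 0 in all 4 libraries and in spermatozoa 13 were at 0 in all 6. Depth differed: liver libraries held 11339729 to 14278900 counts, F1 sperm libraries 1503733 to 2778171, and KO-F2 sperm libraries 11462105 and 8384266, so that 3 counts, the most that a reading of 0 allows, stood for 0.210 to 0.265 CPM (counts scaled to a library total of 1000000) in liver, 1.08 to 2.00 in F1 spermatozoa and 0.262 to 0.358 in KO-F2 spermatozoa. From 24 to 38 members had a count in an F1 sperm library and 57 in each KO-F2 library. The ribosomal RNA gene Rn45s took 3.52% to 28.7% of the counts of a sperm library and at most 1.59% of a liver library. Scml2 itself was at 0 counts in liver and at 0 to 18 counts in the sperm libraries, too few to check the labels, and the sons of all groups carry the wild-type gene. Markers of spermatids and of hepatocytes stood as the labels say: 52 late spermatogenesis genes summed to 37010 to 97000 CPM in spermatozoa, and 20 hepatocyte genes to 175400 to 194700 CPM in liver and 37.1 to 308 CPM in spermatozoa.

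Histone genes took a small share of the counts. It was 0.0518% and 0.0554% in Ctrl-F1 liver and 0.0608% and 0.0589% in KO-F1 liver. In spermatozoa it was 0.164% (95% Wilson interval 0.160 to 0.170) and 0.118% in Ctrl-F1, 0.290% (0.284 to 0.297) and 0.173% in KO-F1, and 0.174% and 0.156% in KO-F2. Every sperm library thus lay above every liver library, and the KO-F1 libraries lay above the Ctrl-F1 libraries, with group means of 0.232% ± 0.0827 and 0.141% ± 0.0330 (SD, n = 2). The upper KO-F2 library overlapped the lower KO-F1 library, but not when Rn45s was left out of the totals (0.201% against 0.243%). With 2 libraries against 2, an exact two-sided permutation test cannot give a p below 0.333, so these shares are descriptions. The intervals treat each read as independent and do not cover the spread between libraries. Amplified reads are not independent molecules, so the intervals may be too narrow even for counting error.

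What made up that share differed more than the share did. Germline histones, which are H1fnt and Hils1 with few counts of Hist1h1t, Hist1h2aa and Hist1h2ba, were 45.4% and 44.8% of histone counts in Ctrl-F1 spermatozoa, 54.0% and 48.0% in KO-F2 spermatozoa, and 7.24% and 14.1% in KO-F1 spermatozoa. Liver had 1 such count in all, in KO-F1 replicate 1. Replacement variants were 44.6% and 45.8% in Ctrl-F1 spermatozoa, 71.6% and 67.5% in those of KO-F1 and 36.8% and 42.6% in KO-F2 spermatozoa, and 72.4% to 76.7% in liver. The 2 KO-F1 libraries therefore stood apart from the other 4 sperm libraries in both classes, on the side of liver, without overlap. All classes are shares of 1 total, so a low germline share by itself raises the shares of the others. In CPM, germline histones summed to 210 and 244 in KO-F1 and to 528 to 940 in the other sperm libraries. Replacement variants summed to 2078 and 1169 CPM in KO-F1 and to 539 to 735 CPM in the other sperm libraries. Canonical H1 genes made up 7.27% and 7.61% in KO-F1 against 2.42% to 3.84% in the other sperm libraries, and canonical H2B genes 5.18% and 7.54% against 2.90% to 3.56%. In liver H2B was 18% to 20.8%, the largest canonical class there.

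**Figure D2:**
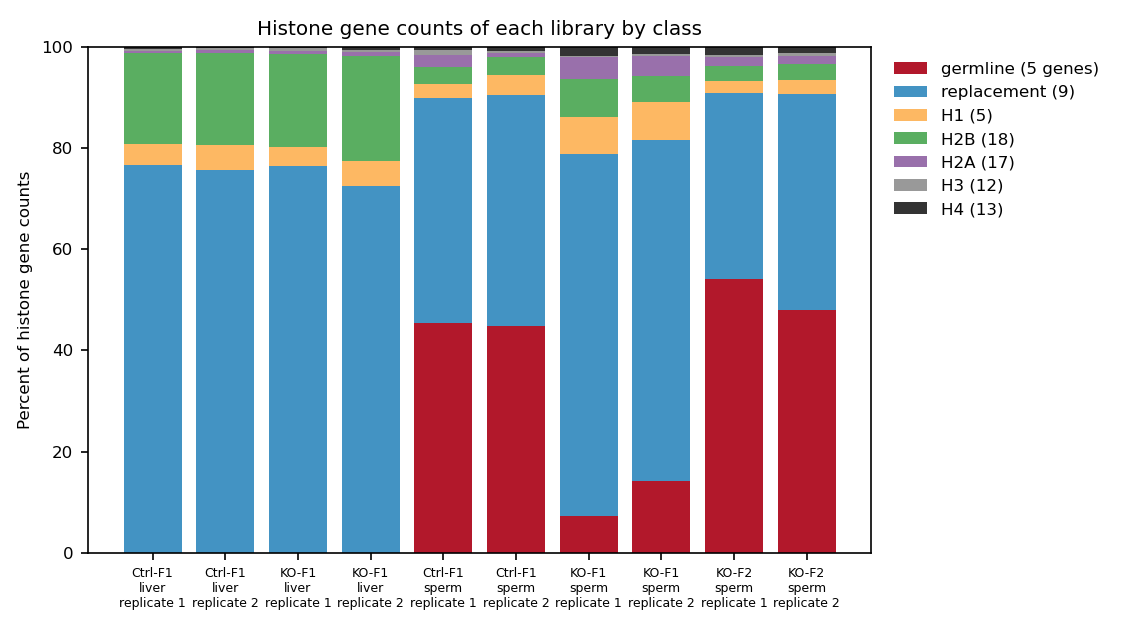
Percent of each library's histone counts in 7 classes (germline histones, replacement variants and canonical H1, H2A, H2B, H3 and H4 genes), as stacked bars, 1 bar per library and 2 libraries per group. Germline histones fill 44.8% to 54.0% of the bars of Ctrl-F1 and KO-F2 spermatozoa, 7.24% and 14.1% of the KO-F1 bars and almost nothing in liver.

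H1fnt makes the linker histone H1T2, found at the pole of the nucleus of round and elongating spermatids. It was at 582 and 433 CPM in Ctrl-F1 spermatozoa, 145 and 184 CPM in KO-F1, 673 and 555 CPM in KO-F2 and 0 in all 4 liver libraries. KO-F1 thus lay below every other sperm library, with means of 507 ± 105 CPM in Ctrl-F1 and 164 ± 27.9 CPM in KO-F1 (SD, n = 2). Per kilobase of its exon it was the highest of the histone genes in Ctrl-F1 spermatozoa (383 ± 79.4 CPM per kb) and in KO-F2 spermatozoa (463), and the 6th in KO-F1 spermatozoa (124). Hils1, the spermatid linker histone of condensing nuclei, was at 159 and 95.1 CPM in Ctrl-F1, 63.7 and 59.9 CPM in KO-F1 and 264 and 192 CPM in KO-F2. Its 3 groups did not overlap, KO-F1 being lowest and KO-F2 highest. It ranked behind H1fnt in Ctrl-F1 (147 ± 52.0 CPM per kb) and KO-F2 spermatozoa (264), and was the 9th in KO-F1 (71.6).

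Both are intron-less genes away from the clusters, H1fnt at chr15:98255982-98257307 on the minus strand and Hils1 at chr11:94967593-94968456 on the plus strand. As they lay low and high in the same groups, the 250 bases before the start of each are shown, from RefSeq for GRCm38.p6 and read in the sense of the gene, with TGACG (the core of the cyclic AMP response element), CCAAT and TATAAA in capitals wherever they stood on either strand.
H1fnt promoter (chr15:98257308-98257557, minus strand): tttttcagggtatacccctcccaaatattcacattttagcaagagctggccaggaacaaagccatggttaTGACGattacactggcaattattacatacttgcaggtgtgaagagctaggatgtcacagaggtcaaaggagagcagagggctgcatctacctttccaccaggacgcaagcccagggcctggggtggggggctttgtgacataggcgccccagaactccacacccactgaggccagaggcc
Hils1 promoter (chr11:94967343-94967592, plus strand): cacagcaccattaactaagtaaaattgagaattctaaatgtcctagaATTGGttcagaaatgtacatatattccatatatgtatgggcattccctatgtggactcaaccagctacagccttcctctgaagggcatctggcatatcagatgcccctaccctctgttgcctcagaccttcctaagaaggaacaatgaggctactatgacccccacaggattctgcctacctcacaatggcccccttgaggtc

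The H1fnt window held TGACG and the Hils1 window a CCAAT box in reverse (ATTGG), and neither held TATAAA, so they shared none of the motifs searched. Of 71 members with a promoter in the table, TGACG stood in 28 (39.4%, against 17.8% of 32851 promoters), CCAAT in 56 (78.9% against 33.8%) and TATAAA in 30 (42.3% against 12.4%), which describes the letters and says nothing of any factor.

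The other germline histones were scarce. Hist1h1t, the testis linker histone of spermatocytes, was counted 1 and 0 times in Ctrl-F1 spermatozoa, 5 and 0 times in KO-F1 and 14 and 9 times in KO-F2, with 1 count in KO-F1 liver replicate 1. Hist1h2aa had 10 and 0, 0 and 0, and 1 and 2 counts in the same order of sperm groups, and Hist1h2ba, which lies beside it in the cluster, had 3 and 0, 0 and 0, and 8 and 2. None of the 3 passed the filter on low counts in any comparison, and at this depth differences between their groups were not detectable. These 3 carry the stem-loop element, whereas H1fnt and Hils1 do not.

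The main comparison asked whether spermatozoa of sons carry an altered RNA content when the father lacked SCML2. Of 18 histone genes that passed the filter, 14 were higher in KO-F1 and 4 lower, and their log2 fold changes had a median of 1.36, where the 10785 genes tested had 0.02 and 50.5% of them were higher. A gene could pass the filter through the group in which it was high, so these directions were partly set by it. A gene was called when its fold change was at least 2 and its adjusted p under 0.01 in edgeR's quasi-likelihood test, and by that rule 0 histone genes and 0 of all genes (0%) were called. At an unadjusted p under 0.05 there were 7 higher histone genes (8.88% of all genes were higher by that measure) and 2 lower (10.6%). DESeq2 called 390 genes (7.68% of those it tested), 1 of them a histone gene, H1fnt, which was lower (5.22% of all were), and edgeR's likelihood ratio test 326 (3.02%), again with 1 histone gene. In CPM rescaled by edgeR's TMM factors, 11 members were higher in both KO-F1 libraries than in both Ctrl-F1 libraries, as were 28.3% of all genes, and 4 were lower, as were 25.8%. In the unscaled CPM given elsewhere, H1f0 and H1fx, counted among those 4, overlapped.

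The lower members were the linker histones outside the clusters. H1fnt differed by a log2 fold change of -2.05 (SE 0.41, adjusted p = 0.140 in edgeR and 2.04e-05 in DESeq2) and Hils1 by -1.46 (SE 0.42, adjusted p = 0.148 in edgeR and 0.0327 in DESeq2). The other pair were H1fx, the somatic linker variant H1.10, at -1.0 (SE 0.56, adjusted p = 0.377 in edgeR), and H1f0, the linker variant of resting and differentiated cells, at -0.51 (SE 0.41, adjusted p = 0.552 in edgeR). Outside the members, a list of other histone variants had 2 genes tested. These were H2afb1 at -2.24 (SE 0.51, adjusted p = 0.140 in edgeR) and H2afy2 at 0.10 (SE 1.2, 0.941). With a library left out H1fnt stayed between -2.30 and -1.83, whereas H1fx was at -1.86 without KO-F1 replicate 1 and at -0.46 without KO-F1 replicate 2. The ratio of H1fnt to H3f3b, which needs no scaling, was 2.28 and 2.05 in Ctrl-F1 libraries and 0.172 and 0.351 in KO-F1 libraries. In KO-F2 libraries it was 3.27 and 2.19, so that KO-F1 lay apart from both. From Ctrl-F1 to KO-F1 the denominator H3f3b moved opposite to H1fnt, by a log2 fold change of 1.09 (SE 0.39). Part of the drop in this ratio therefore came from H3f3b. The ratio of H1fnt to H1f0 was 6.36 and 4.52, 1.37 and 2.45, and 30.1 and 17.4 in the same order. There too KO-F1 was lowest, and H1f0 was itself low in KO-F2. The ratio of H1fnt to Hils1 was 3.67 and 4.55, 2.27 and 3.07, and 2.55 and 2.89 in the same order, and there KO-F1 overlapped KO-F2.

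These differences did not stand alone. Over 52 late spermatogenesis genes the summed level was 77680 to 91310 CPM in Ctrl-F1, 37010 to 45510 CPM in KO-F1 and 88530 to 97000 CPM in KO-F2 spermatozoa, and 45 of the 47 tested were lower in KO-F1 (median -1.66 on the log2 scale, 0 called in edgeR, 22 called lower and 0 higher in DESeq2). In such bulk RNA fewer cells of a type and less RNA per cell cannot be told apart. When libraries were scaled to the summed counts of that list, the median over all genes moved to 1.47 and that of the histone genes to 2.70, H1fnt went to -0.59 (adjusted p = 0.407 in edgeR) and Hils1 to -0.03 (0.967), and H1fx and H1f0 turned to higher (0.41 and 0.97). The signal of 20 leukocyte markers was 3386 and 7241 CPM in Ctrl-F1 and 12910 and 31320 CPM in KO-F1, of which Cd52, a glycoprotein gene also expressed in the epididymis, gave 2387 and 6718 CPM and 12130 and 30700 CPM. Without Cd52 it was 522 to 1000 CPM and 613 to 778 CPM, and 30 epididymal epithelium genes summed to 10830 to 25420 and 17400 to 18600 CPM, so that these overlapped. Genes of dividing cells, 24 in number, summed to 90.4 to 165 and 104 to 149 CPM. The part of these lists in the result was not tested.

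**Figure D3:**
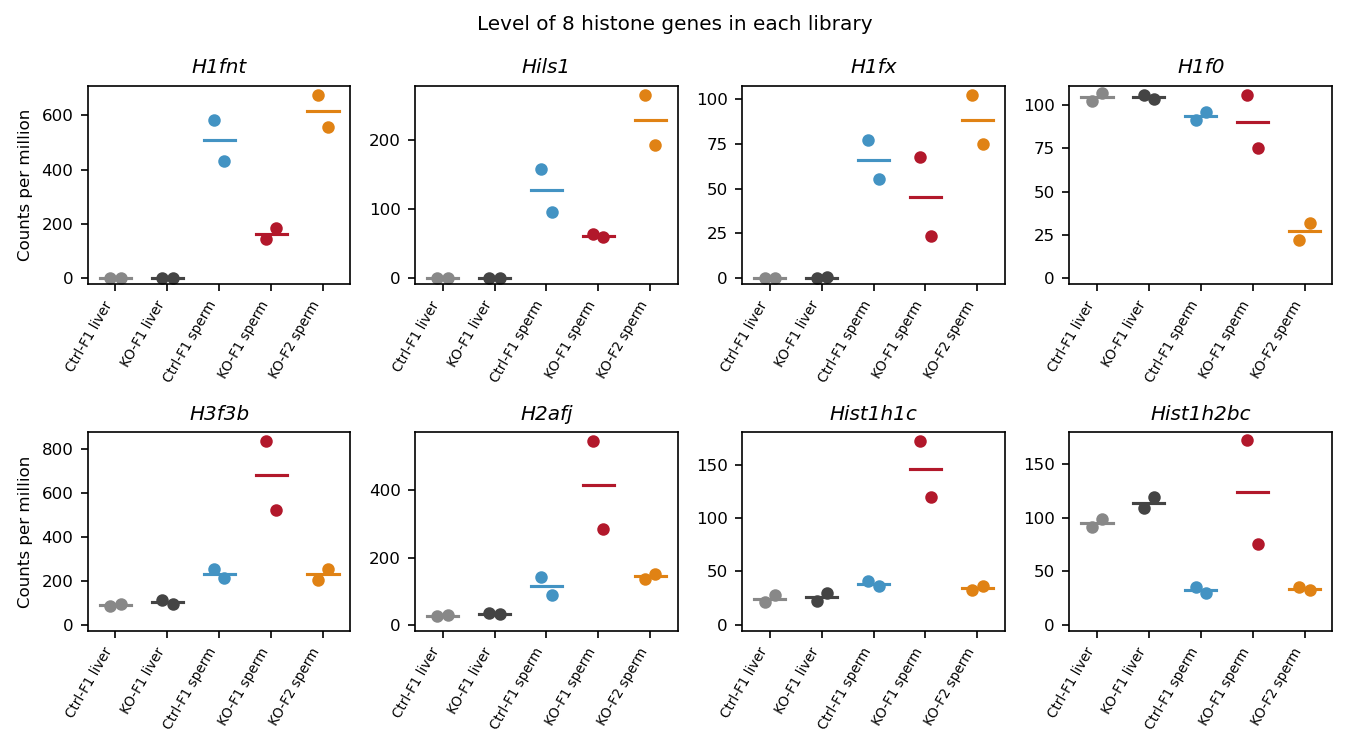
Level in CPM of 8 histone genes (H1fnt, Hils1, H1fx, H1f0, H3f3b, H2afj, Hist1h1c and Hist1h2bc) in the 5 groups, each point a library and each line the mean of 2. H1fnt and Hils1 are lowest among spermatozoa in KO-F1, where H3f3b (839 and 525 CPM), H2afj, Hist1h1c and Hist1h2bc are highest, and H1f0 is lowest in KO-F2 (22.3 and 32 CPM).

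Replacement variants were mostly higher in KO-F1 spermatozoa than in the other sperm groups. H3f3b, a gene of histone H3.3, was at 255 and 212 CPM in Ctrl-F1, 839 and 525 CPM in KO-F1 and 206 and 254 CPM in KO-F2. H3f3a, which makes the same protein, was at 45.7 and 28.6, 156 and 95, and 45.9 and 47.8. Both were thus higher in each KO-F1 library than in any other sperm library, and the ratio of their CPM, H3f3b to H3f3a, was 4.49 to 7.40 in spermatozoa and 2.36 to 2.46 in liver. This ratio does not rank the genes, since H3f3b is longer and has more unique windows: per kilobase H3f3a was at 34.5 ± 2.23 and H3f3b at 31.2 ± 2.11 CPM per kb in Ctrl-F1 liver (SD, n = 2). H2afj, an H2A variant known from senescent and luminal epithelial cells, was at 141 and 89.8 CPM in Ctrl-F1, 546 and 285 CPM in KO-F1 and 137 and 152 CPM in KO-F2. It did not overlap, and the log2 fold change from Ctrl-F1 to KO-F1 was 1.40 (SE 0.44, adjusted p = 0.157 in edgeR), which did not pass the test.

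The H2A.Z genes were lower in level. H2afv (H2A.Z.2) was at 22.3 and 12.6 CPM in Ctrl-F1, 85.3 and 55.2 CPM in KO-F1 and 30.9 and 26 CPM in KO-F2, without overlap between KO-F1 and the rest. H2afz (H2A.Z.1) was at 8.24 and 7.32, 26.6 and 10.6, and 16.3 and 11.3, where KO-F1 and KO-F2 overlapped. H2afy, which makes macroH2A1, was at 41.2 and 29.9, 75.6 and 58.5, and 46.9 and 45.7, and the ranges of the 3 groups did not overlap. H2afx, whose product is phosphorylated at DNA breaks and over the sex chromosomes in meiosis, was at 52.3 and 8.65 CPM in Ctrl-F1 and 175 and 40.3 CPM in KO-F1, so that its libraries lay far apart within each group and the groups overlapped. Of the 9 replacement variants, 7 lay above and 2 below control in KO-F1 spermatozoa (median log2 fold change 1.09, 0 called).

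Of the canonical genes 7 passed the filter, 2 each of H1, H2A and H2B and 1 of H4, and all 7 were higher in KO-F1 by 1.36 to 1.95 on the log2 scale with 0 called. Among them, Hist1h1e, Hist1h2ac and Hist2h2be reached the filter's level in only 1 Ctrl-F1 library and passed through KO-F1, where they were high. The shared direction was therefore partly set by the filter. Hist1h1c, the linker histone H1.2, was at 41.2 and 35.9 CPM in Ctrl-F1, 172 and 119 CPM in KO-F1 and 32.4 and 36.1 CPM in KO-F2. Its KO-F1 libraries lay above the rest, and the log2 fold change was 1.47 (SE 0.43, adjusted p = 0.148 in edgeR and 0.0308 in DESeq2). Hist1h2bc, an H2B gene, was at 35.0 and 29.3, 172 and 75.8, and 35.0 and 32.4 CPM, a log2 fold change of 1.48 (SE 0.50, adjusted p = 0.175 in edgeR). Hist3h2a, an H2A gene of the small cluster on chromosome 11, was at 26.8 and 9.31, 114 and 56.1, and 28.0 and 20.8 CPM, a log2 fold change of 1.79 (SE 0.62, adjusted p = 0.181 in edgeR). The KO-F1 libraries of all 3 stood above those of the other sperm groups, replicate 1 above replicate 2. Without KO-F1 replicate 1 the log2 fold change of Hist1h2bc was 0.86, and with a library left out that of Hist3h2a ran from 1.29 without KO-F1 replicate 1 to 2.61 without Ctrl-F1 replicate 1.

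Members that carry the stem-loop element took 25.8% and 20.2% of histone counts in KO-F1 spermatozoa against 12.7% and 9.48% in Ctrl-F1 and 10.5% and 10.1% in KO-F2. Restricted to those whose annotation ends within 100 bases of it, the shares were 13.8% and 13.3%, 7.34% and 5.87%, and 6.51% and 6.58%. The KO-F1 libraries were the highest of all 10 in the second measure, in which liver held 5.04% to 6.91%. In the first, liver held 24.4% to 28.9%, most of it Hist1h2bc. These shares depend on H1fnt and Hils1, which are in the denominator and low in KO-F1.

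**Figure D4:**
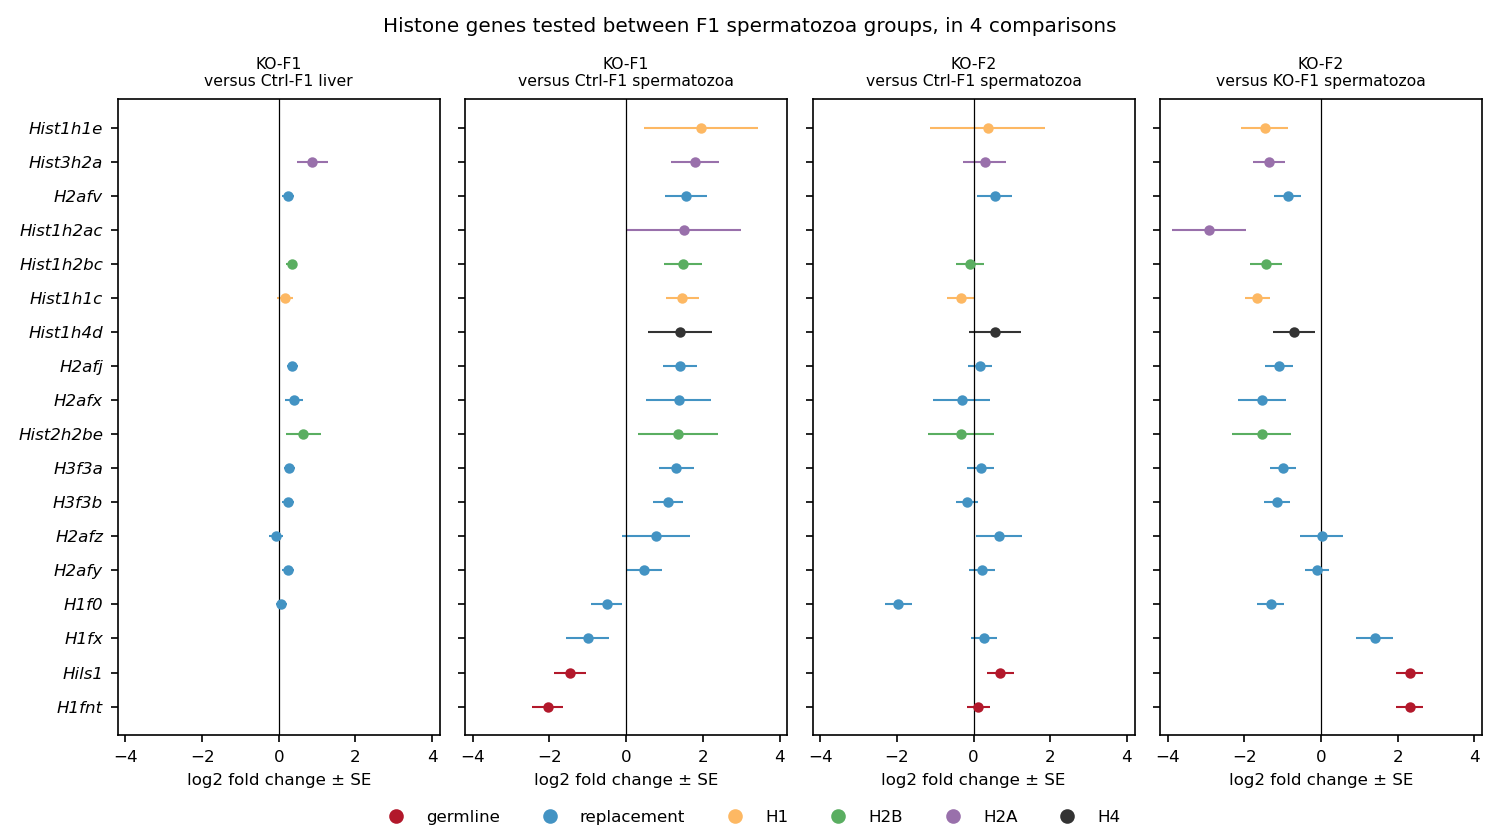
Log2 fold change (points) and its standard error (bars) in edgeR's quasi-likelihood fit for 18 histone genes in 4 comparisons: KO-F1 against Ctrl-F1 in liver and in spermatozoa, KO-F2 against Ctrl-F1 spermatozoa and KO-F2 against KO-F1 spermatozoa; genes that did not pass the filter have no point. In KO-F1 against Ctrl-F1 spermatozoa 14 genes lie right of 0 and H1fnt, Hils1, H1fx and H1f0 lie left of it, the last pair moving right of 0 under scaling to late spermatogenesis genes.

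Spermatozoa of KO-F2 males were compared with those of Ctrl-F1 males, the same controls as before, to ask whether differences lasted into the next generation. Of 24 histone genes tested 14 were higher and 10 lower, with a median of 0.17 against 0.07 over all genes, of which 53% were higher, and 0 of 13149 genes (0%) were called in edgeR. At an unadjusted p under 0.05 there were 2 histone genes, where 14.9% of all genes were found, and DESeq2 called 277 genes (2.15%), of which H1f0 was the only histone gene, and the likelihood ratio test 581 (4.42%) with 2 histone genes. H1f0 was at 91.5 and 95.8 CPM in Ctrl-F1, 106 and 75.3 CPM in KO-F1 and 22.3 and 32 CPM in KO-F2. Its KO-F2 libraries lay below all others, liver included (102 to 107 CPM), and the log2 fold change was -1.96 (SE 0.36, adjusted p = 0.149 in edgeR and 0.00121 in DESeq2). Hist1h4h, an H4 gene, was at 0 counts in both Ctrl-F1 libraries and at 58 and 42 counts in the deeper KO-F2 libraries, and did not pass either (adjusted p = 0.212 in edgeR).

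Neither germline linker histone passed the test against control in KO-F2. H1fnt had a log2 fold change of 0.12 (SE 0.30, adjusted p = 0.906 in edgeR) and its libraries overlapped, the sign turning to -0.02 without KO-F2 replicate 1. Hils1 lay above control in both KO-F2 libraries, with 0.70 (SE 0.34, adjusted p = 0.417 in edgeR). In TMM-scaled CPM 5 members were higher in both KO-F2 libraries (28.9% of all genes) and 4 lower (19.2%), although unscaled CPM of Hist1h1c, H3f3b and Hist1h2bc overlapped. Of the former, H2afv was at 0.55 (SE 0.45) and H2afz at 0.67 (SE 0.60). Of the latter, Hist1h1c was at -0.33 (SE 0.35), H3f3b at -0.18 (SE 0.29) and Hist1h2bc at -0.09 (SE 0.36), which turned to 0.01 when 10 counts were asked of every library and to 0.14 at equal depth. Leukocyte markers without Cd52 summed to 4444 to 6011 CPM in KO-F2 against 522 to 1000 in Ctrl-F1, and epididymal genes to 3871 to 5533 against 10830 to 25420, and their part in these values was not tested.

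Between KO-F2 and KO-F1 spermatozoa, the libraries of the comparisons above set against each other, 312 of 13517 genes (2.31%) were called, nearly all higher (2.11%, against 0.2% lower), and 0 of the 25 histone genes tested. The smallest adjusted p-values lay just above the threshold. Hils1 was higher in KO-F2 by 2.31 (SE 0.34, adjusted p = 0.0101 in edgeR and 6.96e-08 in DESeq2) and H1fnt by 2.31 (SE 0.36, adjusted p = 0.0106 in edgeR and 4.05e-09 in DESeq2). Lower in KO-F2 were Hist1h1c by -1.66 (SE 0.32, adjusted p = 0.0169 in edgeR), H1f0 by -1.31 (SE 0.35, 0.0392), Hist1h2bc by -1.43 (SE 0.41, 0.0489) and H3f3b by -1.14 (SE 0.34, 0.0526). H1fx at 1.41 (SE 0.49, adjusted p = 0.0813 in edgeR) and Hist1h2bp, an H2B gene without the stem-loop letters, at 1.55 (SE 0.86, 0.237) were higher, and both turned to just below 0 (-0.16 and -0.05) under scaling to late spermatogenesis genes.

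In direction 9 of the 25 were higher and 16 lower, with a median of -0.71 against 0.13 over all genes, of which 53.1% were higher. At an unadjusted p under 0.05, 3 were higher (22.4% of all genes) and 11 lower (14.4%). DESeq2 called H1fnt and Hils1 higher (9.29% of all genes were) and Hist1h1c and H3f3b lower (4.36%), 4 members among 2059 genes (13.6%), and the likelihood ratio test 5 among 2944 (21.8%). Without KO-F1 replicate 2, edgeR called 8 histone genes and 1930 genes in all, and without any other library 0 histone genes. Late spermatogenesis genes were higher in KO-F2, with 48 of 50 up, a median of 2.09 and 9 called, and scaled to them the median of all genes was -1.46, H1fnt 0.71 (adjusted p = 0.140 in edgeR) and Hils1 0.72 (0.121). Their part in the result, and that of the leukocyte markers, 7 of which were called higher, was not tested.

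The tissues were compared within each paternal group. In Ctrl-F1, 7 of 18 histone genes tested were called higher in spermatozoa (18.6% of all genes were) and 0 lower (11.6%), where 30.2% of all genes were called in either direction. In sign 14 of the 18 were higher (49.7% of all genes), and the median log2 fold change was 1.79 against -0.02. Of the genes called, H1fnt, Hils1, H1fx, Hist1h4d and Hist1h2bp passed the filter only through spermatozoa, where they were high. These counts of calls and signs were therefore partly set by the filter. H1fnt and Hils1, at 0 counts in liver, were at least 2390-fold and 598-fold higher in spermatozoa, set against 3 counts in a liver library of average depth (adjusted p = 0.00121 for both in edgeR). H1fx was at 0.210 and 0.214 CPM in liver, which is 3 counts a library, and at 77.1 and 55.2 CPM in spermatozoa, and rose by 8.43 (SE 0.44, adjusted p = 0.00121 in edgeR). This linker histone was thus barely counted in the Ctrl-F1 liver libraries but was the 5th histone gene per kilobase in Ctrl-F1 spermatozoa (62.3 CPM per kb), where the kit differed as well as the tissue. H2afj, at 26.1 and 27.9 CPM in liver, rose by 2.34 (SE 0.29, adjusted p = 0.00351 in edgeR), and H3f3b, at 87.4 and 96.2 CPM in liver, rose by 1.60 (SE 0.24, 0.00588). Hist1h4d rose from 0.0700 and 0 CPM to 6.18 and 6.65 (7.23, SE 1.09, adjusted p = 0.00595 in edgeR), and Hist1h2bp from 0 counts to 3.71 and 5.32 CPM (adjusted p = 0.00788 in edgeR).

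Of the histone genes tested, 4 were lower in Ctrl-F1 spermatozoa than in liver, and edgeR called none of them. Hist1h2bc was at 91.0 and 98.5 CPM in Ctrl-F1 liver and was the highest histone gene there per kilobase (122 ± 6.80 CPM per kb, SD, n = 2), ahead of H1f0 at 45.6, H3f3a at 34.5 and Hist1h1c at 33.9, the last pair closer than their spread. Its log2 fold change to spermatozoa was -1.31 (SE 0.26, adjusted p = 0.0133 in edgeR and 0.00802 in DESeq2, which called it lower). H2afz, at 25.1 and 30.6 CPM in liver, differed by -1.58 (SE 0.41, adjusted p = 0.0275 in edgeR). H2afy, at 80.1 and 74.6 CPM in liver, differed by -0.88 (SE 0.28, adjusted p = 0.0510 in edgeR), and H2afv, at 32.4 and 33.0 CPM, by -0.66 (SE 0.37, 0.198), which turned to 0.09 with libraries thinned to equal depth. H1f0 overlapped between the tissues in TMM-scaled CPM, with a log2 fold change of 0.10 (SE 0.26, adjusted p = 0.761 in edgeR). In unscaled CPM it lay lower in spermatozoa, at 91.5 and 95.8 CPM against 102 and 107 CPM in Ctrl-F1 liver.

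The number of calls depended on single libraries: without Ctrl-F1 liver replicate 1 or 2 it was 3, without Ctrl-F1 sperm replicate 1 it was 11 and without replicate 2 it was 12. H1fnt, Hils1 and H1fx were called in each of these 4 fits.

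In the KO-F1 males 10 of 22 histone genes tested were called higher in spermatozoa than in liver (19.8% of all genes were) and 0 lower (15.8%), 35.7% of all genes being called. In sign 17 of the 22 were higher (50.6% of all genes), with a median of 2.67 against 0.03. Here too H1fnt, Hils1, H1fx, Hist1h4d, Hist1h2ac and Hist1h1e, all called, passed the filter only through spermatozoa, so that it partly set these counts. H1fnt and Hils1 were at least 645-fold and 243-fold higher (adjusted p = 0.000205 and 0.000307 in edgeR), and Hist1h2ac, an H2A gene at 0 counts in KO-F1 liver, was at least 43.0-fold higher at 10.4 and 11.5 CPM (adjusted p = 0.00318 in edgeR). Hist3h2a rose by 4.04 (SE 0.44), H2afj by 3.16 (SE 0.36), Hist1h4d by 6.87 (SE 0.80), H3f3b by 2.23 (SE 0.31), Hist1h1c by 2.00 (SE 0.33) and H1fx by 6.30 (SE 1.18), with adjusted p from 0.000824 to 0.00584 in edgeR. H1fx rested on few liver counts and was 10.7 without KO-F1 liver replicate 2 and 5.27 without replicate 1, where it was no longer called (adjusted p = 0.0117 in edgeR). Hist1h1e, the linker histone H1.4, rose by 8.25 (SE 1.13, adjusted p = 0.00188 in edgeR), from 0 and 0.0882 CPM in liver to 38.5 and 12.5 CPM. Hist1h2bc was at 109 and 119 CPM in KO-F1 liver and 172 and 75.8 CPM in KO-F1 spermatozoa, which overlapped. Lower in spermatozoa without passing were H2afy at -0.86 (SE 0.27), H1f0 at -0.69 (SE 0.27), H2afz at -0.94 (SE 0.48) and Hist2h3c1, uncertain as above, at -0.77 (SE 0.73), the last turning to 0.78 at equal depth. Without KO-F1 liver replicate 1 the number of calls was 3 and without replicate 2 it was 5.

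In liver itself, KO-F1 against Ctrl-F1, 14 histone genes were tested and 0 called, as were 0 of 11505 genes (0%). DESeq2 called 20 genes (0.271%) and the likelihood ratio test 28 (0.243%), 0 of them histone genes. At an unadjusted p under 0.05 there was 1 histone gene, H2afj, where 9.41% of all genes were found. It was at 26.1 and 27.9 CPM in Ctrl-F1 and 34.4 and 31.5 CPM in KO-F1, a log2 fold change of 0.35 (SE 0.15, adjusted p = 0.528 in edgeR). The direction was shared: 13 of 14 were higher in KO-F1 (49.4% of all genes) with a median of 0.30 against -0.01, and 11 had KO-F1 libraries above both Ctrl-F1 libraries in TMM-scaled CPM (20.2% of all genes) and 0 below (21.4%). In unscaled CPM, H1f0, H3f3b and H2afx, which are among the 11, overlapped. Hist1h2bc was at 91.0 and 98.5 CPM in Ctrl-F1 and 109 and 119 CPM in KO-F1 (log2 fold change 0.33, SE 0.15, adjusted p = 0.544 in edgeR). Hist3h2a was at 1.89 and 2.28 CPM and 3.44 and 3.88 CPM (0.88, SE 0.40, 0.550). Hist2h3c1 was at 1.33 and 1.36 CPM and 2.37 and 2.65 CPM (0.96, SE 0.47, 0.561). None of these passed the test. Among cell marker lists, 14 of the 15 leukocyte genes tested were also higher in KO-F1 liver and 1 lower (median 0.41). Hepatocyte genes were 14 higher and 6 lower (median 0.18), and genes of dividing cells 6 higher and 11 lower (median -0.14). The part of these lists in the shared direction was not tested.

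Whether the paternal difference itself differed between spermatozoa and liver was tested as an interaction over all 8 F1 libraries. Of 24 histone genes 0 were called, as were 0 of 14415 genes (0%), while DESeq2 called 261 genes (2%) and the likelihood ratio test 344 (2.39%), 0 of them histone genes. At an unadjusted p under 0.05 there were 2 histone genes, where 14.3% of all genes were found, and both had the larger rise in spermatozoa: Hist1h1c at 1.20 (SE 0.48, adjusted p = 0.314 in edgeR) and Hist1h4h, which was at 0 counts in Ctrl-F1 spermatozoa, so that its fitted value is no measure of size. H1fnt and Hils1 were at 0 in liver and gave no interpretable interaction.

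Genes that act on histones were counted from lists. Of 9 genes of histone replacement in spermatids, all tested in KO-F1 against Ctrl-F1 spermatozoa, 8 were lower and 1 higher and the median was -1.80, with 0 called in edgeR and 5 in DESeq2. The transition protein genes Tnp1 and Tnp2 were at -2.17 (SE 0.46) and -2.07 (SE 0.50), and the protamine genes Prm1 and Prm2 at -2.10 (SE 0.53) and -2.30 (SE 0.54), with adjusted p = 0.140 in edgeR for each, in the range of H1fnt. The list summed to 40510 to 73570 CPM in Ctrl-F1, 13550 to 19890 in KO-F1 and 75390 to 85680 in KO-F2 spermatozoa. Against KO-F1, Tnp1 rose in KO-F2 by 3.46 (SE 0.44, adjusted p = 0.00911 in edgeR), the 1 call in the list.

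Of histone chaperones, which carry histones to and from DNA, 17 of 18 were tested in KO-F1 against Ctrl-F1 spermatozoa, 7 higher and 10 lower, with a median of -0.15. EdgeR called 0 of them and DESeq2 called 1 lower. They lay apart, from -2.05 (SE 0.42, adjusted p = 0.140 in edgeR) for Supt16 of the FACT complex and -1.77 (SE 0.50, 0.144) for Nasp, a chaperone of H1 and H3, to 2.36 (SE 0.88, 0.203) for Asf1a, a chaperone of H3 and H4, the 3 being picked out after their values were seen. Genes that transcribe and process histone messages, which include the stem-loop binding protein, numbered 13, of which 10 were tested, 5 higher and 5 lower, with a median of 0.10 and 0 called in edgeR or DESeq2. From KO-F1 to KO-F2 the medians of the chaperones and of the processing genes were 0.27 and 0.14. EdgeR called 0 in either list, and DESeq2 called 2 chaperones and 1 processing gene higher. In Ctrl-F1 spermatozoa against liver 4 of 18 chaperones were called higher and 0 lower, with a median of 1.17, and 0 of 12 processing genes were called in edgeR (1 lower in DESeq2), with a median of -0.30.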

How the data were processed

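Counts were deposited by the authors as raw read counts per gene symbol, 1 table per library. Per the methods and the submitters' processing notes, single-end 75-base reads were aligned to mm10 (GRCm38) with HISAT2 2.1.0 and unique reads counted with featureCounts; annotation and strand setting are not given in the sources used here. Of 23420 lines in each table, 4 lines of 2 symbols listed more than once were left out. Here, CPM were computed over the library total, and groups of 2 libraries compared with edgeR 4.0.16 (R 4.3.3; TMM, filterByExpr with a minimum count of 10, quasi-likelihood test on the counts), Benjamini-Hochberg over all genes tested. Genes were called at an adjusted p under 0.01 where the fold was 2 or more. DESeq2 1.42.0, the likelihood ratio test, other filters and scalings, thinning, a replicate block and leaving out each library were alternatives. Scripts were tested on simulated data. Replicates were called independent by the study, and p-values measure the spread between these libraries. Depth, 1503733 to 14278900 counts, sets the precision.

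Genes named with a test were the germline members where tested, up to 4 higher and 4 lower members of smallest p with groups not overlapping in TMM-scaled CPM, and every member called. Levels were given for replacement variants and the most abundant members. A few genes outside this rule (among them Hist1h4n, Hist2h3c2 and the members at 0 with few unique windows) were named after their values were seen. The members and lists were chosen with earlier results of these data known. Stem-loops, windows, promoters and coordinates were read from RefSeq's GRCm38.p6. Libraries of the series other than these 10 (37 samples of chromatin and embryos) were not analysed here.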

Additional observations from a re-analysis of the deposited data

How the results depend on the processing

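Counts of called histone genes depended on the setting. In KO-F1 against Ctrl-F1 spermatozoa the 0 became 1 with DESeq2, with no filter, with at least 10 counts in every library and with the likelihood ratio test, and the calls over all genes went from 0 to between 113 and 390. In KO-F2 against Ctrl-F1 spermatozoa the 0 became 1 with DESeq2 and 2 with the likelihood ratio test. In KO-F2 against KO-F1 spermatozoa the 0 became 5 at an adjusted p under 0.05 (2759 genes in all, against 312), 4 with DESeq2, 2 with DESeq2 size factors, 12 with scaling to late spermatogenesis genes (3141), 6 with no filter, 4 with at least 10 counts, 5 with the likelihood ratio test and 2 after thinning, and ranged from 0 to 8 with a library left out. In Ctrl-F1 spermatozoa against liver the 7 became 4 with no filter and 4 after thinning and ranged from 3 to 12. In KO-F1 spermatozoa against liver the 10 became 5 with at least 10 counts and ranged from 3 to 14. Over all genes and alternatives, calls ran from 0 to 82 in liver (0 as reported), 0 to 581 in KO-F2 against Ctrl-F1 (0), 1 to 3141 in KO-F2 against KO-F1 (312), 1987 to 7985 in Ctrl-F1 spermatozoa against liver (3990), 1824 to 7809 in KO-F1 spermatozoa against liver (4662) and 0 to 344 in the interaction (0). Without Rn45s in the total, histone genes took 0.186% in Ctrl-F1, 0.294% in KO-F1 and 0.181% in KO-F2 spermatozoa. The Ctrl-F1 and KO-F2 means were in the reverse order with Rn45s (0.141% and 0.165%), and their libraries overlapped either way. Signs turned for H1fx (0.41) and H1f0 (0.97) in KO-F1 against Ctrl-F1 spermatozoa and for H1fx (-0.16) and Hist1h2bp (-0.050) in KO-F2 against KO-F1 under scaling to late spermatogenesis genes; for H1fnt (-0.023 without KO-F2 replicate 1, with a range up to 0.26 as libraries were left out) and Hist1h2bc (0.013 with at least 10 counts, 0.14 thinned) in KO-F2 against Ctrl-F1; and after thinning for H2afv (0.092) and Hist2h3c1 (0.78) between the tissues. The cause was not tested. Of the values of single genes and groups under an alternative, 556 kept direction and side of the threshold, 52 passed it and 30 lost it, in the same direction. With 1 library left in a group, that library was assumed to vary like the others. In F1 spermatozoa differences near 2.00 CPM were beyond the depth.

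No source used here says that equal replicate numbers mark shared animals, and deviations of same-numbered libraries correlated at -0.162 to 0.156, so the numbers were not taken as a pairing. With the replicate block, calls were 1 in KO-F2 against Ctrl-F1 spermatozoa (H1f0), 2 in KO-F2 against KO-F1 (H1fnt and Hils1) and 4 in Ctrl-F1 spermatozoa against liver. In the other comparisons the number of histone genes called stayed within 1.5 times under the block. A crossed pairing in liver, chosen after seeing the data, called 0.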
